A study of Homo sapiens with 8 samples.

Results

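The genes described here encode the heat shock chaperones of the cytosol and the mitochondrion and the factors that control them. The set is a list of 43 gene symbols, and a member was taken where the gene column of a deposited table equals its symbol. Of the 43, 42 have a row of their own in both tables, among 42167 gene rows for MCF10A and 42197 for the second line. DNAJB4 shares its row with GIPC2 in both tables and is given apart. RNA was sequenced from MCF10A, an immortalized line of human breast epithelium that does not form tumours, and from MCF10A cells that, per the labels, overexpress the intracellular domain of NOTCH1. Each line was grown in the same serum- and EGF-containing medium and treated for 3 days with 30 µM ginkgolic acid, which inhibits SUMO conjugation, or with the solvent DMSO alone. Each of the 4 groups had 2 samples, and the labels do not say whether these were separate cultures, nor how the NOTCH1 construct was delivered or whether the line is 1 clone.

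The deposited values are FPKM, fragments scaled to transcript length and to the mapped fragments, with 1 value per gene and group. No replicate error can be computed, no difference was tested, the depth is unknown, and "higher" and "lower" refer to these group values alone. The 2 tables were normalized separately, so ratios were formed within a table. Epithelial marker genes had 14.96 to 990 FPKM in the DMSO groups (6 of 8 markers had a row of their own in MCF10A and 7 in the second line). With ginkgolic acid they had 5.68 to 167 FPKM in MCF10A and 14.2 to 614 in the second line. Of the 6 in MCF10A, 3 were at least 2-fold lower with ginkgolic acid and 2 higher, beside 15.2% and 24.3% of all genes. Of the 7 in the second line, 0 were lower and 2 higher, beside 18.9% in each direction. Markers of fibroblasts summed to 30.7 FPKM with DMSO and 23.1 with ginkgolic acid in MCF10A and to 73.1 and 43.1 in the second line, with DCN as the highest in each. Leukocyte markers summed to between 12.6 and 17.6 FPKM in all 4 groups and endothelial markers to between 2.75 and 10.7; none of these with a row was at 0, and their part in the results was not tested. Under DMSO, NOTCH1 itself was at 11.4 FPKM in MCF10A but at 5.03 in the line meant to overexpress it, which goes against the label. Under ginkgolic acid the order was the other way, at 6.18 and 12.4 FPKM. These levels are set across tables normalized separately, so the label could not be checked firmly and the line is called NOTCH1-labelled. In bulk RNA, fewer cells with a transcript and less transcript per cell cannot be told apart.

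Chaperones bind unfolded segments of other proteins and keep them from aggregating until they fold. HSP70 proteins take up clients delivered by J-domain proteins, release them with the help of exchange factors such as the HSP110 and BAG proteins, and pass some of them on to HSP90. Chaperonins are ring-shaped chambers, 1 kind in the cytosol and 1 in mitochondria, and small heat shock proteins hold unfolded clients without using ATP. Heat shock factor 1, encoded by HSF1, is the main activator of the inducible members when proteins misfold, and it binds inverted repeats of the unit GAA.

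These repeats, the heat shock elements, are a sequence feature that many but not all members hold. RefSeq promoter windows (GRCh38.p14, 250 bases before to 50 after a gene's start) were found for 38 members. HSPA14, BAG4, FKBP4, CRYAB and HSF1 had no entry. A gene can have several windows: the 38 members had 54, and all genes 35116. A match to 2 units, GAANNTTC or TTCNNGAA, each its own reverse complement, was present in 23 of 38 members (60.5%) and in 16.2% of all 27305 genes with a window. A match to 3 alternating units, GAANNTTC directly followed by NNGAA or its reverse complement, TTCNNGAA directly followed by NNTTC, was present in 8 of 38 (21.1%) and in 0.608% of all genes. Every match to 3 units contains matches to 2, and a match is a run of letters, not a measured binding site.

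Stretches with 3 or more alternating units are shown first, because they hold the longest matches. Capitals mark the matches, and sequences read 5′ to 3′ on the strand of the gene. Where the match lies in an annotated exon of some transcript, 30 bases are shown.
HSPA6, chr1:161524290-161524539, plus strand: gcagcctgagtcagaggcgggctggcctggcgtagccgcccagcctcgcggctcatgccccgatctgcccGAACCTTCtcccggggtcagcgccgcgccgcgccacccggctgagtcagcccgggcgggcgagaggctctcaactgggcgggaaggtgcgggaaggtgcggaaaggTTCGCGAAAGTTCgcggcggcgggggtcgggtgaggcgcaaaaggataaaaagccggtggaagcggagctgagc
HSP90AB1, chr6:44247693-44247865, plus strand: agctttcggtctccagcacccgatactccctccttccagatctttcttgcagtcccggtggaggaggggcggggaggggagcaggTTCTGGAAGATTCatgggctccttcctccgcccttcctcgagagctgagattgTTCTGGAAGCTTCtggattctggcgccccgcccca
DNAJB6, chr7:157336774-157336965, plus strand: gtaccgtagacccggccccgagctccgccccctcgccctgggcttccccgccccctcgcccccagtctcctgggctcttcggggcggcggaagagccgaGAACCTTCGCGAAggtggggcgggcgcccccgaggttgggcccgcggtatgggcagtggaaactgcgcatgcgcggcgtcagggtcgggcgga
HSP90AA1, chr14:102087112-102087141, minus strand: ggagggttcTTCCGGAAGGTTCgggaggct
CHORDC1, chr11:90223084-90223113, minus strand: accgGAAAATTCGCGAAGGTTCCTGAAacg
HSPD1, chr2:197500061-197500090, minus strand: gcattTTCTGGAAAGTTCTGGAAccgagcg
HSPA8, chr11:123062346-123062375, minus strand: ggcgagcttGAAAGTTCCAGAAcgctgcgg
DNAJA1, chr9:33025267-33025296, plus strand: cgccgggcgGAACTTTCCAGAAcgctcggt
In HSPA6 the match to 3 units begins 74 bases before the gene's start, in HSP90AA1 88 and in CHORDC1 60 bases before it. CHORDC1 has the longest unbroken run of the 8, with 4 overlapping matches to 2 units, and HSP90AB1 has a pair of separate matches to 3 units. In DNAJA1 the match lies just after the start.

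Members with 2 units only are shown next for 4 genes whose values set the results below. HSPA1A and HSPA1B are near-identical copies, DNAJB1 is the main inducible J-domain gene, and HSPB1 lay beyond 2-fold in opposite directions in the lines.
HSPA1A, chr6:31815293-31815463, plus strand: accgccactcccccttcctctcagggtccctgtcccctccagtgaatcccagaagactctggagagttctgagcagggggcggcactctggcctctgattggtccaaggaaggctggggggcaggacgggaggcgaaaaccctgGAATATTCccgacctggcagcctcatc
HSPA1B, chr6:31827488-31827734, plus strand: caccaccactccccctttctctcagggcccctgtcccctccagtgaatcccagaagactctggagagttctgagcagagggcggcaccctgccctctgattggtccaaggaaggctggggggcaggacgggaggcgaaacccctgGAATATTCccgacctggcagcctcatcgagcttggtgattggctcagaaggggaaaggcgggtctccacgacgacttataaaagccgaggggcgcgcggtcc
DNAJB1, chr19:14518421-14518647, minus strand: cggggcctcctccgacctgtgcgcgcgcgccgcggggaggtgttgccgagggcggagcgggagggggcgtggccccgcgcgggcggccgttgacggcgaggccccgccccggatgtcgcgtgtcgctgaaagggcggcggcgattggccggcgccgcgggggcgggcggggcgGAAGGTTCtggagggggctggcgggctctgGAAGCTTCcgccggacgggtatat
HSPB1, chr7:76302423-76302543, plus strand: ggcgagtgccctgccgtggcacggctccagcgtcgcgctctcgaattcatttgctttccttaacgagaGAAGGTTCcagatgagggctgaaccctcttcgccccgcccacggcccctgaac
The matched bases are the same letters in HSPA1A and HSPA1B, and lie 106 and 105 bases before their starts. DNAJB1 holds 2 separate matches in the stretch shown.

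In MCF10A the members' median ratio was close to that of all genes at a minimum of 1 FPKM. Counting the 41 members that reached 1 FPKM in a group and were above 0 in both, 6 were higher by 2-fold or more under ginkgolic acid (14.6%), where 24.3% of all 17690 genes were, and 4 were at least 2-fold lower (9.76%), where 15.2% of all genes were. Their median log2 ratio of ginkgolic acid over DMSO was 0.03, beside 0.07 over all genes. Above 0 were 21 of 41, beside 52.2% of all genes. The 6 higher genes were HSPA1A, HSPA1B, HSPA6, HSPA13, CHORDC1 and HSF2, and the 4 lower were HSPA2, AHSA1, HSPB1 and HSPB8. With the median ratio of genes at 1 FPKM or more in both groups subtracted (−0.11 in MCF10A and 0.14 in NOTCH1-labelled cells; ratios so adjusted are called centred), the MCF10A counts were 9 and 3. HSP90AA1, HSP90AB1 and DNAJB5 then joined the higher genes and AHSA1 left the lower ones. The shares of all genes given here are as deposited. None was computed with centred ratios, so centred counts have no background beside them.

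In NOTCH1-labelled cells more members had higher values under ginkgolic acid. Here 14 of 41 members were higher by 2-fold or more (34.1%), where 18.9% of all 19550 genes were, and 1 was at least 2-fold lower, where 18.9% of all genes were. The median log2 ratio was 0.56, beside 0.06 over all genes, and 31 of 41 were above 0, beside 52.2% of all genes. The 1 lower gene was HSPA8. The centred counts were 12 and 1, so the counts of higher genes in the lines, 6 and 14, came to 9 and 12. Whether the centred counts differ from those of all genes was not computed. Among genes reaching 5 FPKM in a group, 11 of 36 members were at least 2-fold higher (30.6%) in NOTCH1-labelled cells, beside 19.6% of all genes, and 5 of 35 in MCF10A (14.3%), beside 12.4%. At that level 1 of 36 was at least 2-fold lower in NOTCH1-labelled cells, beside 9.35% of all genes, and 2 of 35 in MCF10A, beside 16.7%. At 5 FPKM the members' median was −0.0087 in MCF10A, beside −0.18 over all genes, and 0.53 in NOTCH1-labelled cells, beside 0.25. Above 0 were then 17 of 35 and 26 of 36 members, beside 41.1% and 61.7% of all genes.

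**Figure D1:**
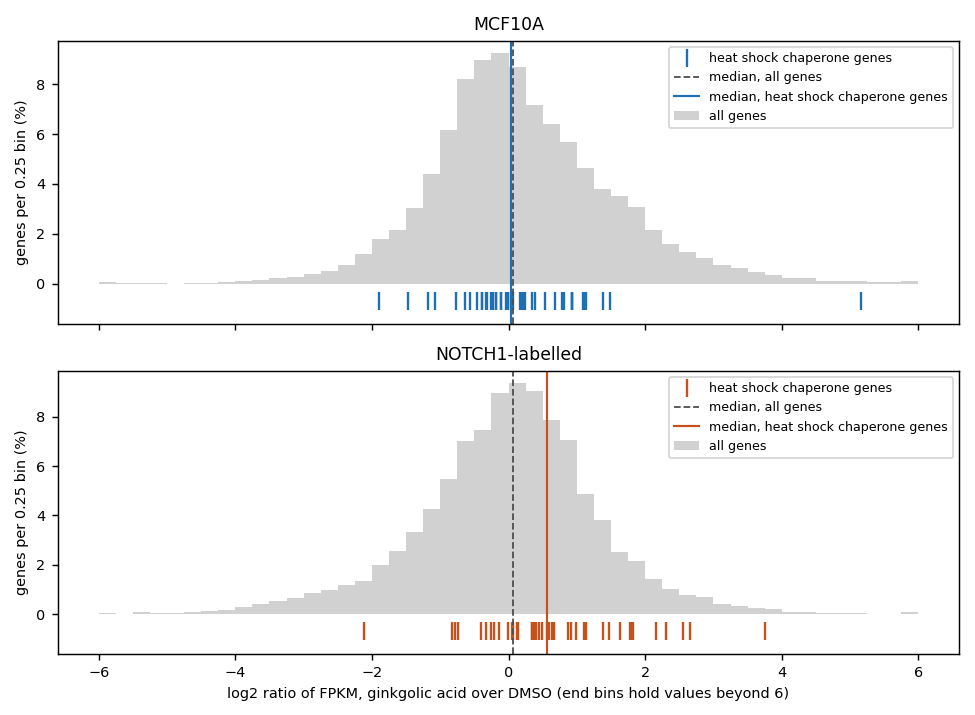
Distribution of log2 ratios of FPKM, ginkgolic acid over DMSO, for all genes (grey bars, percent of genes per bin of 0.25) with the heat shock chaperone genes as ticks below; dashed lines are medians of all genes and solid lines medians of the members. In MCF10A the medians are 0.07 and 0.03, and in NOTCH1-labelled cells 0.06 and 0.56.

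The HSP70 genes held the highest ratios of the set. HSPA1A and HSPA1B encode the inducible cytosolic HSP70, and their longest open reading frames are 99.8% identical over 1926 bases, so reads of 1 copy cannot be kept apart from the other with certainty. HSPA1A (chromosome 6, 31777395 to 31785723 on hg19, a span that the table shares with HSPA1L) was at 36.9 FPKM under ginkgolic acid against 17.0 under DMSO in MCF10A. In NOTCH1-labelled cells it was at 57.6 and 11.6. HSPA1B (chromosome 6, 31795511 to 31798031) was at 45.8 and 21.0 FPKM in MCF10A and at 64.4 and 10.96 in NOTCH1-labelled cells. Both copies were thus about level with each other in each of the 4 groups, with log2 ratios of 1.12 and 1.13 in MCF10A and 2.31 and 2.56 in NOTCH1-labelled cells. Their rows on alternative sequences of chromosome 6 were all at 0.

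HSPA6 encodes a strictly inducible HSP70 that most unstressed cells barely express, and its window holds 3 units. It was at 3.07 FPKM under ginkgolic acid against 0.0863 under DMSO in MCF10A, the highest ratio of all members (35.6-fold, log2 5.15). In NOTCH1-labelled cells it was at 2.21 and 0.163 FPKM, a log2 ratio of 3.76. The DMSO values lie below all 5 leukocyte markers of their table, and the ginkgolic acid values lie inside the range of those markers, so the size of the ratio rests on very low values. HSPA13, a microsome-associated HSP70 relative, was at 33.8 and 12.1 FPKM in MCF10A and at 78.2 and 12.4 in NOTCH1-labelled cells, with no heat shock element match in its window. Its ginkgolic acid value was the higher in both tables.

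The other HSP70 genes had no common direction. HSPA9, the mitochondrial HSP70, was at 873 FPKM under ginkgolic acid against 991 under DMSO in MCF10A and at 1068 and 1234 in NOTCH1-labelled cells. HSPA14, a ribosome-associated relative, was at 23.1 and 22.6 FPKM in MCF10A and at 17.6 and 31.2 in NOTCH1-labelled cells. HSPA2, best known from the testis, was at 0.504 and 1.40 FPKM in MCF10A and below 1 FPKM in both NOTCH1-labelled groups. HSPA1L, another gene of the testis, was below 1 FPKM in both MCF10A groups and at 1.34 and 0.485 in NOTCH1-labelled cells, a log2 ratio of 1.47.

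HSPA8, which encodes the constitutive cytosolic HSP70, was listed at 77284 FPKM under ginkgolic acid against 113906 under DMSO in MCF10A, and at 10861 and 47153 in NOTCH1-labelled cells. These values exceed those of every other member, and the gene (chromosome 11, 122928196 to 122933938) holds the small nucleolar RNAs SNORD14C, SNORD14D and SNORD14E. SNORD14E has a row of its own, at 2425 and 228 FPKM in MCF10A and at 2003 and 546 in NOTCH1-labelled cells. The tables do not separate reads of spliced HSPA8 from reads of these RNAs, and their part in the HSPA8 values was not tested. Small RNAs also lie in HSPA9, TCP1, AHSA1 and PTGES3. Without these 5 members the counts of genes at least 2-fold higher stayed at 6 and 14, and none was at least 2-fold lower in NOTCH1-labelled cells.

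**Figure D2:**
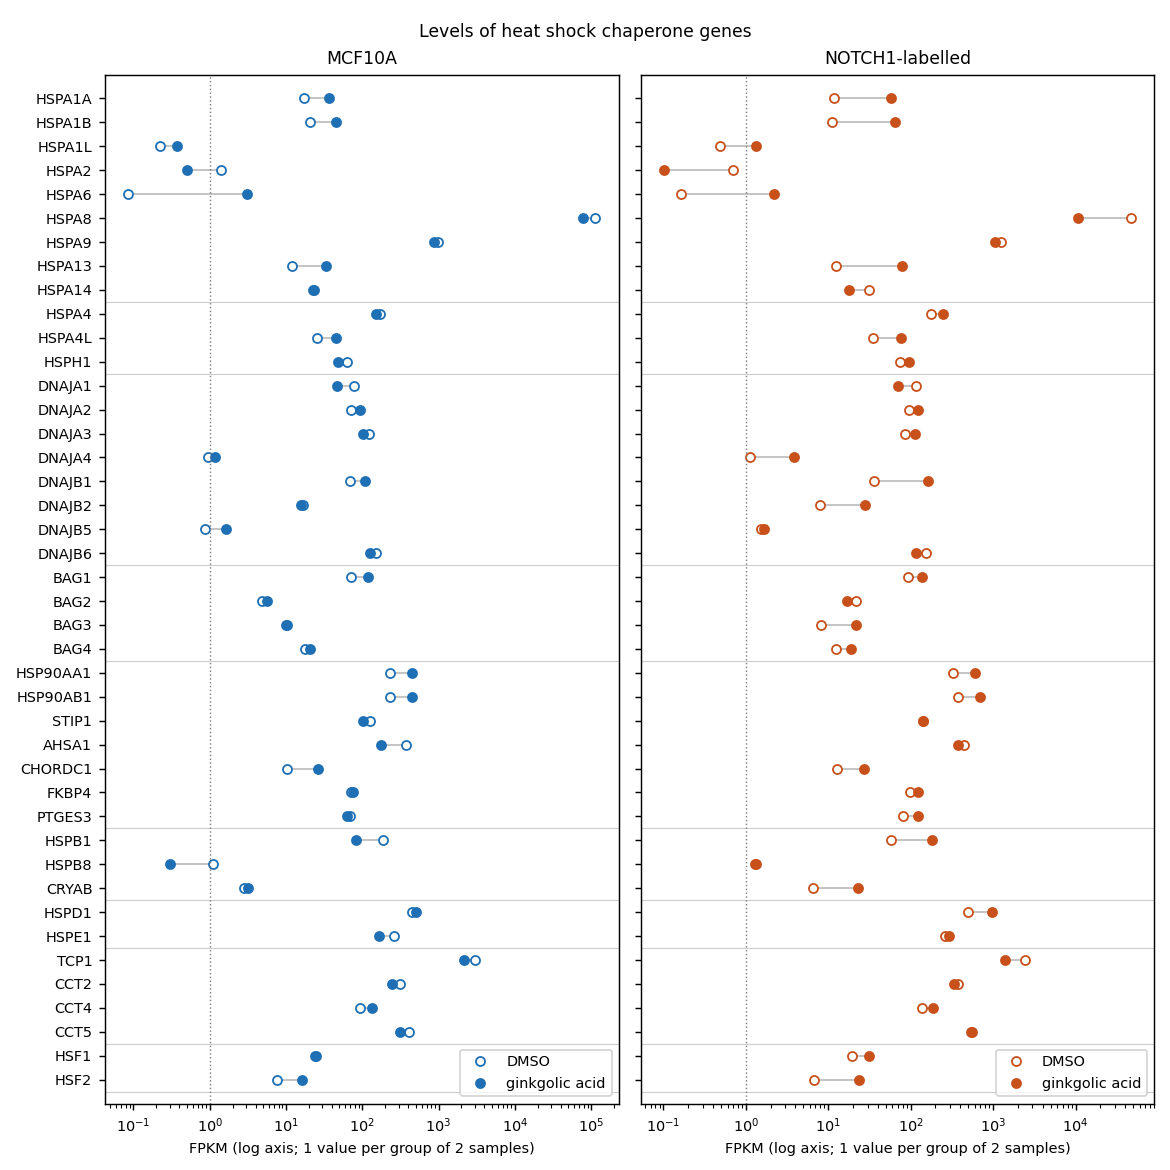
FPKM of the 42 members with a row of their own, on a log axis, in MCF10A (left) and NOTCH1-labelled cells (right), open circles for DMSO and filled circles for ginkgolic acid, each the 1 deposited value of a group of 2 samples; the dotted line is 1 FPKM and grey lines separate the roles. HSPA8 lies far to the right in both panels, and HSPA1A, HSPA1B, HSPA6 and HSPA13 have the filled circle to the right.

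The HSP110 genes encode exchange factors that release clients from HSP70. HSPA4L, the least expressed with DMSO, was at 45.0 FPKM under ginkgolic acid against 25.8 under DMSO in MCF10A and at 76.0 and 34.6 in NOTCH1-labelled cells. HSPA4 was at 152 and 172 FPKM in MCF10A and at 247 and 175 in NOTCH1-labelled cells. HSPH1, usually strongly heat-inducible, was at 48.7 and 63.9 FPKM in MCF10A and at 96.2 and 74.5 in NOTCH1-labelled cells. Only HSPA4L passed 2-fold, in NOTCH1-labelled cells with a log2 ratio of 1.14, and its centred value was 0.997, just under 2-fold.

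Among the J-domain genes DNAJB1 and DNAJA1 lay on opposite sides of 0 in both lines. DNAJB1, the main inducible partner of HSP70 (chromosome 19, 14625581 to 14640049), was at 109.8 FPKM under ginkgolic acid against 68.3 under DMSO in MCF10A and at 161 and 36.2 in NOTCH1-labelled cells. DNAJA1, a constitutive partner, was at 46.6 and 79.0 FPKM in MCF10A and at 69.4 and 115 in NOTCH1-labelled cells. The FPKM of DNAJB1 was therefore 0.864 times that of DNAJA1 with DMSO and 2.36 times with ginkgolic acid in MCF10A. In NOTCH1-labelled cells these figures were 0.313 and 2.33, so the ratio of the pair was alike under ginkgolic acid and unlike under DMSO.

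DNAJB2, a J-domain protein that sorts clients to the proteasome and is best known from neurons, was at 15.5 and 16.7 FPKM in MCF10A and at 28.2 and 7.99 in NOTCH1-labelled cells. DNAJA4 was at 1.19 and 0.939 FPKM in MCF10A and at 3.82 and 1.11 in NOTCH1-labelled cells. In NOTCH1-labelled cells DNAJB1, DNAJB2 and DNAJA4 were at least 2-fold higher, and in MCF10A no J-domain gene was beyond 2-fold. DNAJA2 had log2 ratios of 0.39 and 0.35 in MCF10A and NOTCH1-labelled cells, DNAJB6, which suppresses aggregation, −0.26 and −0.40, and DNAJA3, of mitochondria, −0.23 and 0.40. DNAJB5 was near 1 FPKM in all groups, at 1.64 and 0.859 in MCF10A and 1.65 and 1.51 in NOTCH1-labelled cells. The row that DNAJB4 shares with GIPC2 was at 43.1 and 14.8 FPKM in MCF10A and at 95.8 and 24.4 in NOTCH1-labelled cells, and the share of each gene in it is unknown.

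BAG proteins bind HSP70 and link it to degradation or survival pathways. BAG3, which directs clients to autophagy and is a known target of heat shock factor 1, was at 10.1 FPKM under ginkgolic acid against 10.2 under DMSO in MCF10A. In NOTCH1-labelled cells BAG3 was at 21.5 and 8.22, a log2 ratio of 1.39. BAG1, which couples HSP70 to the proteasome, was at 120.4 and 70.3 FPKM in MCF10A and at 137 and 92.5 in NOTCH1-labelled cells. BAG2, an inhibitor of the ubiquitin ligase CHIP, was at 5.62 and 4.85 FPKM in MCF10A and at 17.1 and 21.5 in NOTCH1-labelled cells. BAG4, a silencer of death receptor signalling, was at 20.9 and 17.7 FPKM in MCF10A and 19.0 and 12.6 in NOTCH1-labelled cells. BAG3 was the only BAG gene beyond 2-fold, and only in NOTCH1-labelled cells; the difference between lines was not tested.

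HSP90 genes stood close to 2-fold in both lines. HSP90AA1 encodes the inducible and HSP90AB1 the constitutive cytosolic HSP90, and both windows hold 3 units. HSP90AA1 was at 447 FPKM under ginkgolic acid against 234 under DMSO in MCF10A and at 595 and 327 in NOTCH1-labelled cells. HSP90AB1 (chromosome 6, 44214823 to 44221620) was at 442 and 232 FPKM in MCF10A and at 702 and 371 in NOTCH1-labelled cells. The pair kept its proportion, with HSP90AA1 at 1.01 times HSP90AB1 in both MCF10A groups and at 0.882 times with DMSO and 0.848 times with ginkgolic acid in NOTCH1-labelled cells. Their 4 log2 ratios lay between 0.86 and 0.93, just short of the 2-fold line.

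The cochaperones of HSP90 did not follow as a group. CHORDC1, a zinc-binding cochaperone (chromosome 11, 89934317 to 89956629), was at 26.7 and 10.3 FPKM in MCF10A and at 27.5 and 12.8 in NOTCH1-labelled cells, with log2 ratios of 1.38 and 1.10. The centred value of the second of these was 0.96, under 2-fold. AHSA1, which stimulates the ATPase of HSP90, was at 176 and 370 FPKM in MCF10A, a log2 ratio of −1.07, and at 371 and 444 in NOTCH1-labelled cells. STIP1, the adaptor between HSP70 and HSP90, was at 102 and 127 FPKM in MCF10A and at 140.5 and 141 in NOTCH1-labelled cells. FKBP4, an immunophilin of steroid receptor complexes, had log2 ratios of 0.07 and 0.35, and PTGES3, the p23 cochaperone, −0.11 and 0.64.

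Small heat shock genes had the largest median difference between the lines among the roles, though CRYAB and HSPB8 were low in MCF10A. HSPB1, the abundant epithelial HSP27 (chromosome 7, 75931860 to 75933612), was at 83.7 FPKM under ginkgolic acid against 189 under DMSO in MCF10A, and at 179 and 57.8 in NOTCH1-labelled cells. Its log2 ratios were −1.17 and 1.63, beyond 2-fold in opposite directions, and they stayed so when centred, at −1.07 and 1.49. CRYAB, alpha B crystallin, was at 3.21 and 2.85 FPKM in MCF10A and at 22.9 and 6.52 in NOTCH1-labelled cells. HSPB8, the partner of BAG3, was at 0.298 and 1.11 FPKM in MCF10A and at 1.33 and 1.28 in NOTCH1-labelled cells, so its ratios rest on low values. All 3 had a higher log2 ratio in NOTCH1-labelled cells, by 2.81, 1.64 and 1.96 in the order HSPB1, CRYAB and HSPB8. Of all genes, 57.4% had the higher ratio there, and 21.5% by 1 or more. The fibroblast markers, with DCN as the highest, summed to less with ginkgolic acid in both lines, but single markers went both ways. Of those measured, 4 were lower and 1 higher in MCF10A, and 4 lower and 2 higher in NOTCH1-labelled cells. Their part in the values of the small heat shock genes was not tested.

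Mitochondrial chaperonin genes sit head to head and share a span in the tables (chromosome 2, 198351304 to 198418423 in the MCF10A table). HSPD1, the HSP60 barrel subunit, was at 505 FPKM under ginkgolic acid against 443 under DMSO in MCF10A and at 977 and 492 in NOTCH1-labelled cells. HSPE1, the HSP10 lid subunit, was at 167 and 260.1 FPKM in MCF10A and at 289 and 263 in NOTCH1-labelled cells. The FPKM of HSPE1 was 0.587 times that of HSPD1 with DMSO and 0.3299 times with ginkgolic acid in MCF10A. In NOTCH1-labelled cells the figures were 0.535 and 0.296, a difference of −0.85 on the log2 scale, beside −0.83 in MCF10A. The lid subunit was lower relative to the barrel under ginkgolic acid in both lines. Each change rests on 1 value per gene and group and was not tested.

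The cytosolic chaperonin, TRiC, folds actin and tubulin. Its 4 member genes stayed within 2-fold in both lines, beside 47.8% of all genes and 58.6% of those reaching 5 FPKM. CCT2 had log2 ratios of −0.33 and −0.15, CCT4 of 0.53 and 0.45, and CCT5 of −0.39 and 0.06 in MCF10A and NOTCH1-labelled cells. CCT4 was at 135 FPKM under ginkgolic acid against 93.4 under DMSO in MCF10A and at 185 and 136 in NOTCH1-labelled cells. TCP1, which holds the small nucleolar RNAs SNORA20 and SNORA29, was at 2154 and 2966 FPKM in MCF10A and at 1403 and 2406 in NOTCH1-labelled cells. Its FPKM exceeded those of the other chaperonin genes in all 4 groups, and the part of the small RNAs was not tested.

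HSF1 stayed within 2-fold in both lines, and HSF2 was higher by more than 2-fold in both. HSF1 (chromosome 8, 145515279 to 145538801) was at 24.0 FPKM under ginkgolic acid against 24.5 under DMSO in MCF10A and at 31.1 and 19.7 in NOTCH1-labelled cells. HSF2, a second factor that binds the same elements and partners with HSF1 (chromosome 6, 122720690 to 122754264), was at 16.2 and 7.64 FPKM in MCF10A and at 23.4 and 6.72 in NOTCH1-labelled cells. Its log2 ratios were 1.08 and 1.80. Activity of HSF1 is controlled mainly on the protein, by chaperone binding and modification, which transcript levels do not show. Of 4 further genes, the other factors HSF4, HSF5 and HSFX1 and the binding protein HSBP1, only HSBP1 was measured, within 2-fold in both lines with log2 ratios of −0.20 and 0.74.

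**Figure D3:**
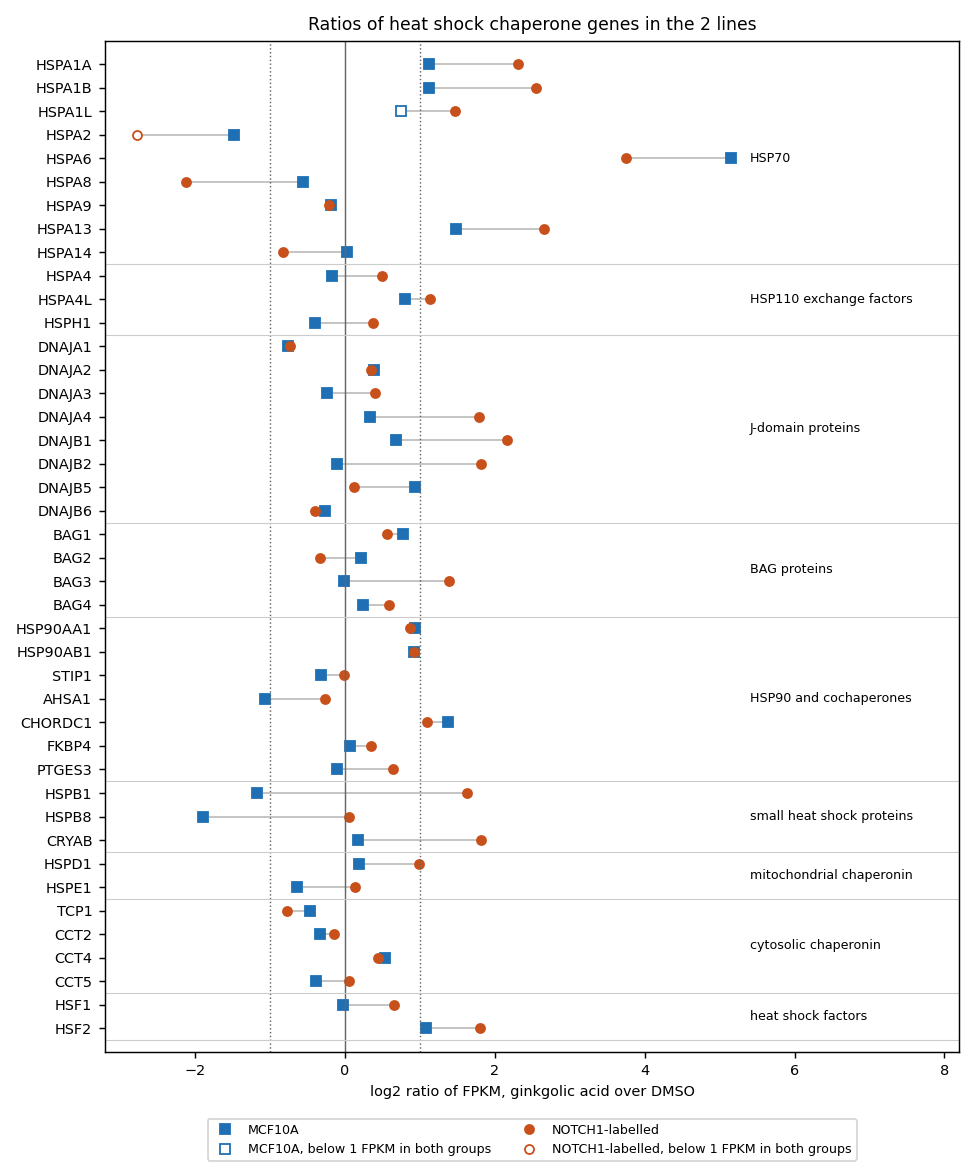
log2 ratios of FPKM, ginkgolic acid over DMSO, for each member in MCF10A (blue squares) and NOTCH1-labelled cells (orange circles), with 1 value per gene and line and no error bars because the deposited values have none; open symbols are below 1 FPKM in both groups and dotted lines mark 2-fold. HSPA1A, HSPA1B, HSPA6, HSPA13 and HSF2 lie beyond 2-fold on the right in both lines, and HSPB1 lies beyond it on opposite sides.

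Across the lines, 40 members could be compared. At least 2-fold higher in both were 6 (15%), the same 6 as in MCF10A, where 5.15% of all 15520 genes were higher in both. None was at least 2-fold lower in both, beside 4.01% of all genes. Within 2-fold in both lines were 24 (60%), beside 47.8% of all genes. A further 7 (17.5%) passed 2-fold upwards only in NOTCH1-labelled cells, beside 11.5% of all genes: HSPA4L, DNAJA4, DNAJB1, DNAJB2, BAG3, HSPB1 and CRYAB. HSPA1L, below 1 FPKM in MCF10A, is the 14th. As deposited, 0 members passed it upwards only in MCF10A, beside 16.3% of all genes. With centred ratios 4 did, HSP90AA1, HSP90AB1, DNAJB5 and CHORDC1, and 6 passed it only in NOTCH1-labelled cells, without a centred share of all genes to set beside them. None of these differences between lines was tested.

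For 10 of 40 members (25%) the log2 ratio in NOTCH1-labelled cells exceeded that in MCF10A by 1 or more, beside 21.5% of all genes, and for 2 (5%), HSPA6 and HSPA8, it was lower by as much, beside 22.4%. It was higher by any amount for 26 of 40 (65%), beside 57.4%. The median difference was 0.40, beside 0.22 over all genes, and 0.15 with centred ratios. The counts with centred ratios were 8 and 4. On opposite sides of 0 lay 13 members (32.5%), beside 45.9% of all genes, and 7 with centred ratios. No share of all genes was computed for these centred counts. Both the share with a higher ratio and the share higher by 1 or more were thus near those of all genes.

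At 5 FPKM the members' higher ratios in NOTCH1-labelled cells did not exceed those of other genes. The log2 ratio was then higher there for 23 of 35 members (65.7%), beside 72.4% of all genes, and by 1 or more for 7 (20%), beside 24.9%. It was lower by 1 or more for 1, HSPA8, beside 8% of all genes. Opposite sides of 0 held 12 members (34.3%), beside 41.5%, and 23 (65.7%) were within 2-fold in both lines, beside 58.6%. The genes at least 2-fold higher in both lines were then HSPA1A, HSPA1B, HSPA13, CHORDC1 and HSF2, 5 of 35 (14.3%), beside 4.85% of all genes, and none was lower in both, beside 3.63%.

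Ratios were set beside the heat shock element matches (the plot of ratios by match). In MCF10A the 8 members with 3 units had a median log2 ratio of 0.56, the 13 with 2 units only 0.21, and the 15 with no match −0.11. In NOTCH1-labelled cells the medians were 0.89 for 8, 0.79 for 14 and 0.45 for 14 members. The classes overlapped in both lines. They also depend on the window. The HSPD1 match begins 245 bases before its start, on the side of its head-to-head neighbour HSPE1, which is classed as no match. Of the 8 with 3 units, HSPA6 and CHORDC1 were at least 2-fold higher in both lines, HSP90AA1, HSP90AB1 and HSPD1 were above 0 in both, and HSPA8, DNAJA1 and DNAJB6 were below 0 in both. In NOTCH1-labelled cells 7 of the 14 with 2 units only were at least 2-fold higher, as were 4 of the 14 with no match, among them HSPA13 and HSF2, beside 18.9% of all genes. Above 0 in that line were 5 of 8 members with 3 units, 9 of 14 with 2 units only and 13 of 14 with no match. That order was opposite to the order of the medians. In MCF10A the counts were 5 of 8, 7 of 13 and 5 of 15, in the order of the medians. Of all genes, 52.2% were above 0 in each line. A link between match and ratio was not tested.

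**Figure D4:**
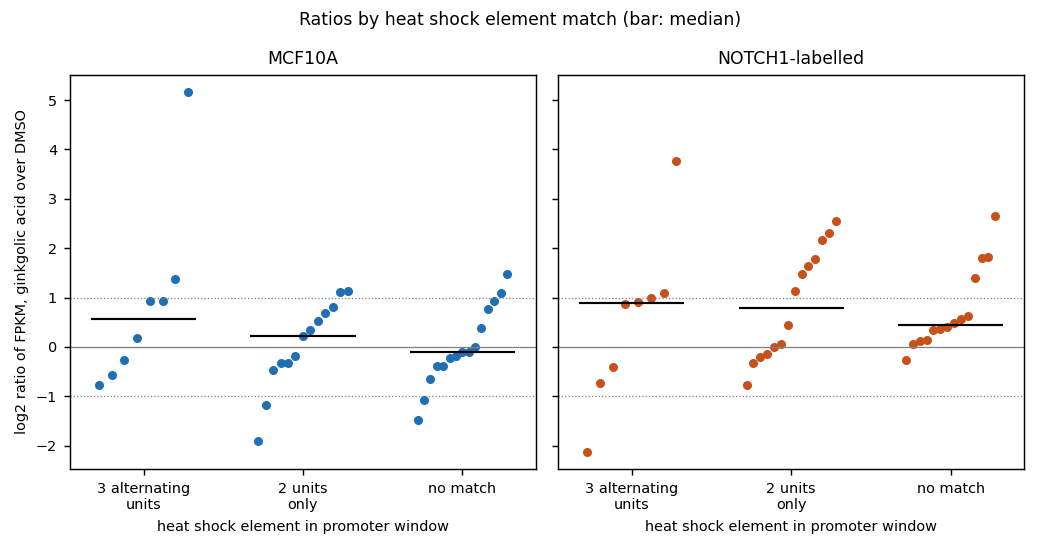
log2 ratios of FPKM, ginkgolic acid over DMSO, of members grouped by heat shock element match in the promoter window (3 alternating units, 2 units only, no match), 1 point per gene and a black bar for the median, in MCF10A (left) and NOTCH1-labelled cells (right). The classes overlap, with medians of 0.56, 0.21 and −0.11 in MCF10A and 0.89, 0.79 and 0.45 in NOTCH1-labelled cells.

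Chaperone genes outside the 43 gave the wider setting. Their lists were chosen with earlier results of these data known. All 8 listed further targets of heat shock factor 1 were measured, and in NOTCH1-labelled cells 6 of 8 were at least 2-fold higher and 0 lower, beside 18.9% of all genes in each direction, with a median log2 ratio of 1.11, beside 0.06. IER5, a regulator of HSF1, was at 78.5 FPKM under ginkgolic acid against 16.6 under DMSO there, and RGS2, a regulator of G protein signalling, at 37.1 and 16.5. In MCF10A none of the 8 was beyond 2-fold, beside 24.3% of all genes higher and 15.2% lower, and the median was 0.46, beside 0.07. IER5 was at 36.8 and 24.8 FPKM in MCF10A, and RGS2 was lower with ginkgolic acid there, at 31.8 and 53.7. These genes answer to other regulators as well. All 8 reached 5 FPKM in a group. Of all genes at that level, 19.6% were at least 2-fold higher and 9.35% lower in NOTCH1-labelled cells, with a median of 0.25. In MCF10A these figures were 12.4%, 16.7% and −0.18.

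Of 12 mitochondrial chaperones and proteases, 1 was at least 2-fold lower in MCF10A, beside 15.2% of all genes. Another 1 was at least 2-fold higher in NOTCH1-labelled cells, beside 18.9%. The medians of the 12 were −0.13 and 0.53, beside 0.07 and 0.06 over all genes. All 12 reached 5 FPKM in a group, and over all genes at that level the medians were −0.18 and 0.25. The 2 genes beyond 2-fold are the paralogous exchange factors of HSPA9. GRPEL1 was at 27.3 FPKM under ginkgolic acid against 87.6 under DMSO in MCF10A and at 43.04 and 85.6 in NOTCH1-labelled cells. GRPEL2 was at 19.4 and 14.99 FPKM in MCF10A and at 35.2 and 9.69 in NOTCH1-labelled cells. In each line the GRPEL1 value was lower and the GRPEL2 value higher with ginkgolic acid.

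Of 14 further HSP90 cochaperones measured, 2 were at least 2-fold lower in MCF10A and 2 at least 2-fold higher in NOTCH1-labelled cells, beside 15.2% and 18.9% of all genes. CDC37, which recruits kinases to HSP90 and holds the microRNA MIR1181, was at 1911 and 5694 FPKM in MCF10A and at 8173 and 2999 in NOTCH1-labelled cells. PPP5C, a phosphatase bound to HSP90, was at 42.5 and 105.9 FPKM in MCF10A, and TOMM34, of mitochondrial import, at 22.8 and 9.51 in NOTCH1-labelled cells. Of further HSP70 partners, 3 of 10 were at least 2-fold lower in MCF10A, beside 15.2% of all genes: DNAJB12, HSPBP1 and BAG5, with log2 ratios of −1.48, −1.30 and −1.13. In NOTCH1-labelled cells 1 of 11, BAG6, was at least 2-fold higher, with 1.58, and 1, DNAJC5, lower, with −1.50, beside 18.9% of all genes in each direction. The 9 measured chaperonin and prefoldin genes stayed within 2-fold in both lines, beside 47.8% of all genes and 58.6% of those reaching 5 FPKM. Their medians were −0.01 in MCF10A and 0.40 in NOTCH1-labelled cells, beside 0.07 and 0.06 over all genes. All 9 reached 5 FPKM in a group, and over all genes at that level the medians were −0.18 and 0.25.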

How the data were processed

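Per the labels' protocols, RNA came from RNeasy preparations and libraries from the ScriptSeq Complete Gold kit. The submitters' processing notes name Cuffdiff 2.1.1, Cufflinks 2.1.1, Bowtie2 2.1.0, TopHat2 2.0.8b and the build GRCh37 (hg19). The authors deposited FPKM values, 1 per gene and group, in 1 table per line. How samples were combined is not given in the sources used here. No depth, replicate error or test can be had.

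Left out were rows without a gene name or with several, rows off the main chromosomes, small RNAs (including loci under 200 bases) and repeated symbols. A gene counted as measured if it reached 1 FPKM in a group and was above 0 in both. Ratios are log2 of FPKM without a pseudocount, and 2-fold is a rule of size, not a test. Gene spans are those of the tables and are given as deposited and can include neighbours. GENCODE 29 gave small RNAs in genes, exons and reading frames. The members, lists and named-gene rule (each member, and up to 3 genes beyond 2-fold per wider list and line) were chosen with earlier results of these data known. One gene that the rule names is not reported here. The ratio and call steps were run on simulated data without noise, which checks the arithmetic and not calls from noisy values. Python 3.11.15, numpy 2.4.6, pandas 2.3.3, biopython 1.88 and matplotlib 3.10.9 were used.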

Additional observations from a re-analysis of the deposited data

Results flagged for a closer look

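Members with log2 ratios on opposite sides of 0 and at least 1 apart in the 2 lines were HSPB1, HSPB8, DNAJB2 and BAG3. The ratio was higher in NOTCH1-labelled cells by 2.81 for HSPB1, 1.96 for HSPB8, 1.93 for DNAJB2 and 1.40 for BAG3. No share of all genes was computed for this joint rule. Taken singly, 45.9% of all genes lay on opposite sides, 21.5% were higher there by 1 or more and 22.4% lower. In MCF10A the ratios of BAG3 and DNAJB2 were near 0, at −0.0087 and −0.10. Those of HSPB8 rest on values of 0.298 to 1.33 FPKM. The differences were not tested, since each rests on 1 deposited value per group. With the median ratio of genes at 1 FPKM or more in both groups subtracted, HSPB1 stayed on opposite sides, with a difference of 2.56. The other 3 no longer lay on opposite sides, while their differences were still 1.71 for HSPB8, 1.68 for DNAJB2 and 1.15 for BAG3. The row shared by DNAJB4 and GIPC2, which is left out of the reported counts, was higher with ginkgolic acid than with DMSO, with a log2 ratio of 1.54 in MCF10A and 1.97 in NOTCH1-labelled cells.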

How the results depend on the processing

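No paired analysis was possible because the tables hold 1 value per gene and group, with no values per sample, and leaving out a replicate was not run for the same reason. Every setting kept the NOTCH1-labelled median and the median difference above 0, but the median difference over all genes was above 0 as well, at 0.22. At 5 FPKM the all-gene medians were −0.18 in MCF10A and 0.25 in NOTCH1-labelled cells. The ratio was then higher in NOTCH1-labelled cells for 72.4% of all genes, beside 65.7% of members. The median in MCF10A, NOTCH1-labelled cells and of the difference, 0.03, 0.56 and 0.40 as reported, was as follows. It was 0.0485 and 0.53 without a minimum FPKM, where the difference kept its value. With a minimum of 5 FPKM it was −0.0087, 0.53 and 0.36, so the MCF10A median changed sign; the all-gene shares at that minimum were added after seeing the data. With a pseudocount of 1 FPKM it was 0.0294, 0.56 and 0.39, and with the median of genes at 1 FPKM or more in both groups subtracted 0.14, 0.42 and 0.15. Without members that hold a small RNA it was 0.18, 0.63 and 0.45, with joined rows added 0.0485, 0.58 and 0.43, and with means 0.195, 0.72 and 0.47. With HSPA1A and HSPA1B summed, a setting chosen after seeing the data, it was 0.011, 0.53 and 0.36. Members at least 2-fold higher numbered 5 to 9 in MCF10A (6 as reported) and 11 to 15 in NOTCH1-labelled cells (14). Members at least 2-fold lower in MCF10A numbered 2, in place of 4, with a minimum of 5 FPKM and with a pseudocount. In NOTCH1-labelled cells they numbered 2 without a minimum and 0 without members that hold a small RNA, in place of 1. With depth unknown, no precision can be given for low values such as those of HSPA6 and HSPB8.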
